A study of Homo sapiens with 4 samples.

Results

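The genes described here are 40 components of the human DNA replication fork. They were chosen by their symbols for what their proteins do at the fork, but with earlier results of these data known. They comprise factors that assemble and fire the fork, the partners of the replicative helicase, the replicative polymerases, the sliding clamp with its loaders, replication protein A, enzymes that finish the lagging strand, fork protection proteins and the histone chaperone that follows the fork. All 40 were among the 10630 genes kept on the arrays, that is, genes with a mean log2 signal of at least 5 over the arrays. Each gene was read by the probe set, a group of short oligonucleotides against its transcript, that had the highest mean log2 signal. The cells were RCM‐1, a human colorectal cancer line from a well‐differentiated rectal tumour, grown to near confluency. A total of 4 arrays had been run, 1 for each time: cells given methylthioacetic acid (MTA, 1 mM), a small sulphur compound that induces fluid‐filled blisters called domes in this line, for 6, 12 or 18 h, and control cells at 0 h. MTA was then replaced by vehicle medium until 24 h after its addition, which left 18, 12 and 6 h without MTA before harvest for treatments of 6, 12 and 18 h. Time in MTA and time after its removal therefore cannot be told apart, and the harvest time of the 0 h cells is not stated outright in the labels or methods. Replicates were lacking, with 1 array per time, and differences are therefore given without a test beside the same measure over all kept genes.

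At each replication origin a loaded MCM ring is converted into an active helicase when CDC45 and the GINS complex join it, a step that needs the kinase CDC7 with its partner DBF4. DNA polymerase alpha and primase then lay down primers, polymerase epsilon extends the leading strand and polymerase delta the lagging strand, and both are tethered by the ring protein PCNA, which replication factor C (RFC) opens and closes around DNA. Many of these genes are transcribed as cells pass from G1 into S phase, under the control of E2F transcription factors, and their transcripts are common markers of proliferating epithelial cells, including those of the colon crypt.

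Of the 40 genes, 34 had a promoter sequence in the RefSeq set for GRCh38.p14, which spans 250 bases before and 50 after each gene's annotated start. These promoters were searched on both strands for TTTGGCGC, TTTGCCGC, TTTCGCGC and TTTCCCGC, letters that E2F proteins are known to bind. A match was present in 13 of the 34 promoters (38.2%), against 3.33% of all 27305 promoters and 5.56% of 8788 promoters of kept genes, and in 11 of the 13 it began within 60 bases of the start. Of the 15 searched genes with a log2 ratio below −1 at 18 h of MTA, 8 had a match, and of the other 19, 5 had one (GINS3, LIG1, POLA1, POLE and TOPBP1). CDC45 and MCM10, the lowest of all, had no match, nor had TIPIN, POLE3, FEN1, CHAF1A and RFC4, which were also below −1. The 8 stretches with a match are shown, 60 bases each on the strand of the gene from 5′ to 3′, with the match in capitals:
POLA2: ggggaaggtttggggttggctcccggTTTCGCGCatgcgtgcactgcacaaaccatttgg
GINS2: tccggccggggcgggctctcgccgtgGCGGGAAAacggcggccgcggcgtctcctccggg
CLSPN: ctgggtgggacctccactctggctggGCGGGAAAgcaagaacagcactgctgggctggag
POLE2: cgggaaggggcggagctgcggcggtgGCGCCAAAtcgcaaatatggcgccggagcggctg
PCNA: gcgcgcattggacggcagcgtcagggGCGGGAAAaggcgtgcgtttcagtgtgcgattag
RFC3: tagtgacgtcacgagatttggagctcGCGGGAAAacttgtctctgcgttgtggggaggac
GINS1: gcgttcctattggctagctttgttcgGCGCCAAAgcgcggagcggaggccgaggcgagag
POLE4: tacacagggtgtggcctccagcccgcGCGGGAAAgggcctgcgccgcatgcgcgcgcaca

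Of these 8 matches, 5 read GCGGGAAA (GINS2, CLSPN, PCNA, RFC3 and POLE4), which is TTTCCCGC on the other strand, and 2 read GCGCCAAA (POLE2 and GINS1). POLA2 alone carried TTTCGCGC on the strand of the gene. In GRCh38.p14 the stretches lie at chr11:65261883-65261942 on the plus strand for POLA2, chr16:85688952-85689011 on the minus strand for GINS2, chr1:35769950-35770009 on the minus strand for CLSPN and chr14:49688186-49688245 on the minus strand for POLE2. Those of PCNA, RFC3, GINS1 and POLE4 lie at chr20:5126648-5126707 on the minus strand, chr13:33818068-33818127 on the plus strand, chr20:25407652-25407711 on the plus strand and chr2:74958586-74958645 on the plus strand. CCAAT, bound by NF‐Y, was present in 18 of the 34 promoters (52.9%), against 35.7% of all promoters and 37.1% of those of kept genes. CACGTG, the E‐box that MYC can bind, was in 4 (11.8%), against 7.43% and 10.7%, TTTGAA or TTCGAA, the CHR element of genes expressed in mitosis, in 1 (2.94%), against 16.6% and 11.2%, and the NRF1 motif in none, against 1.36% and 2.45%. A match describes the letters in this window and is not evidence of binding. DNA2, DSCC1, GINS4, POLD3, RPA2 and RPA3 were not searched.

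The arrays differed in overall signal, so each value is also set against the median of all kept genes. For 6, 12 and 18 h that median log2 ratio to 0 h was 0.11, −0.28 and −0.46, while control RNA added before labelling stood at 0.20, 0.03 and −0.25 and control RNA added after labelling at 0.02, −0.27 and −0.05. All 11 colorectal epithelial markers were kept, with a summed signal from 39541 to 55458 over the 4 arrays, lowest at 18 h and highest at 0 h. Of other cell types, 1 of 7 stromal markers (COL1A1), 0 of 3 immune and 1 of 3 endothelial markers (PECAM1) were kept, with summed signals of 88.1 to 225, 29.6 to 38.5 and 36.0 to 63.0, and their part in the results was not tested. The only measure of error is the disagreement between probe sets: over 4793 genes with several kept probe sets the log2 ratio at 18 h differed between the brightest pair with an SD of 0.49 (median absolute difference 0.25), and over the 12 such fork genes with an SD of 0.41. Signals of different probe sets are not comparable between genes. In a bulk sample, fewer replicating cells and less RNA per cell cannot be told apart.

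After 18 h of MTA treatment, transcripts of the replication fork had lower signals than at 0 h across nearly the whole set. Of the 40 genes, 39 had a log2 ratio below 0 (33 to 39 under 5 other scalings of the arrays), against 78% of all kept genes, and 35 lay below the median of all kept genes. A log2 ratio below −1, a halving, was reached by 19 (47.5%), against 15.7% of all kept genes, and one below −1.5 by 6, against 3.19%. With each array centred on its median, 8 of the 40 were below −1, against 3.56% of all kept genes. These were CDC45, MCM10, POLA2, GINS2, TIPIN, POLE3, CLSPN and POLE2. Under the 5 other scalings the number below −1 ranged from 6 to 17, against 3.09% to 13.8% of all kept genes. No fork gene was above 1, against 3.28% of all kept genes. The median log2 ratio of the set was −0.99 at 18 h, a shift of −0.53 from all kept genes, with a range from −2.32 for CDC45 to 0.23 for RPA3. MCM10, POLA2, POLE3, GINS2, GINS3 and TIPIN had already been selected on these same arrays for their lower signal at 18 h, so their direction is not independent evidence. Without them the median of the other 34 genes was −0.89, a shift of −0.43, and 14 were below −1, but only CDC45 was below −1.5.

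**Figure D1:**
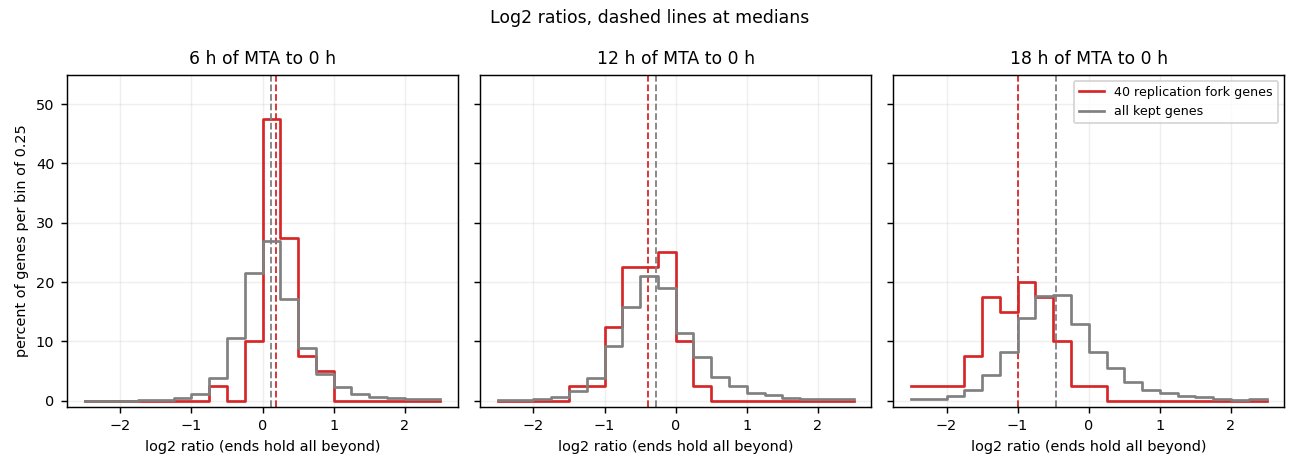
Share of genes, in percent per bin of 0.25, by log2 ratio of MTA arrays (6, 12 and 18 h) over the 0 h array, for the 40 replication fork genes (red) and all 10630 kept genes (grey), with dashed lines at the medians. The medians lie close at 6 h (0.19 and 0.11) and 12 h (−0.39 and −0.28) and apart at 18 h (−0.99 and −0.46).

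Among the genes that turn a loaded MCM ring into a moving helicase, the lowest ratios of the set were found. CDC45, which completes the helicase together with GINS, had signals of 357, 369, 197 and 71.4 at 0, 6, 12 and 18 h. Its 0 h and 6 h signals were close together, and at 18 h it retained 20.0% of its 0 h signal, a log2 ratio of −2.32 that only 0.216% of kept genes undercut. MCM10, which activates the assembled helicase, had signals of 428, 470.1, 215 and 95.9 at 0, 6, 12 and 18 h, a log2 ratio of −2.16 at 18 h, with −1.83 and −1.16 on its other kept probe sets. Both genes were thus near their 0 h level at 6 h, lower at 12 h and far lower at 18 h.

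GINS, a complex of 4 subunits, was not uniform by the brightest probe sets. GINS2 had signals of 1010.1, 943, 494 and 301 at 0, 6, 12 and 18 h, a log2 ratio of −1.74 at 18 h. GINS1 had 736, 782, 419 and 311, a log2 ratio of −1.24. GINS3 had 138, 138, 105 and 90.3, a log2 ratio of −0.61, which lay near the median of all kept genes. A second kept probe set of GINS3 gave 106, 130, 83.1 and 34.4, a log2 ratio of −1.62, so the probe sets of this subunit differed by 1.01, more than the usual disagreement between probe sets. GINS4 was dim, with 46.8, 80.9, 51.4 and 31.0, a log2 ratio of −0.59, and −1.004 on its second kept probe set. GINS1 and GINS2 were thus below −1, while GINS3 and GINS4 depended on the probe set.

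The firing kinase and the scaffolds of the fork had smaller differences. CDC7, the kinase that phosphorylates the MCM ring, had signals of 319, 371, 276 and 229 at 0, 6, 12 and 18 h, a log2 ratio of −0.48 at 18 h, as low as the median of all kept genes. DBF4, its activating subunit, read 597 after 18 h and 1091 at 0 h (−0.87). TOPBP1, which brings CDC45 and GINS to the origin and activates the checkpoint kinase ATR, had 812 at 18 h and 1402 at 0 h (−0.79). WDHD1, the hub that couples the helicase to polymerase alpha, had signals of 138, 187, 106 and 78.6 at 0, 6, 12 and 18 h, a log2 ratio of −0.81. Its other kept probe sets gave −1.47 and −1.84, so whether WDHD1 was halved depended on the probe set.

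**Figure D2:**
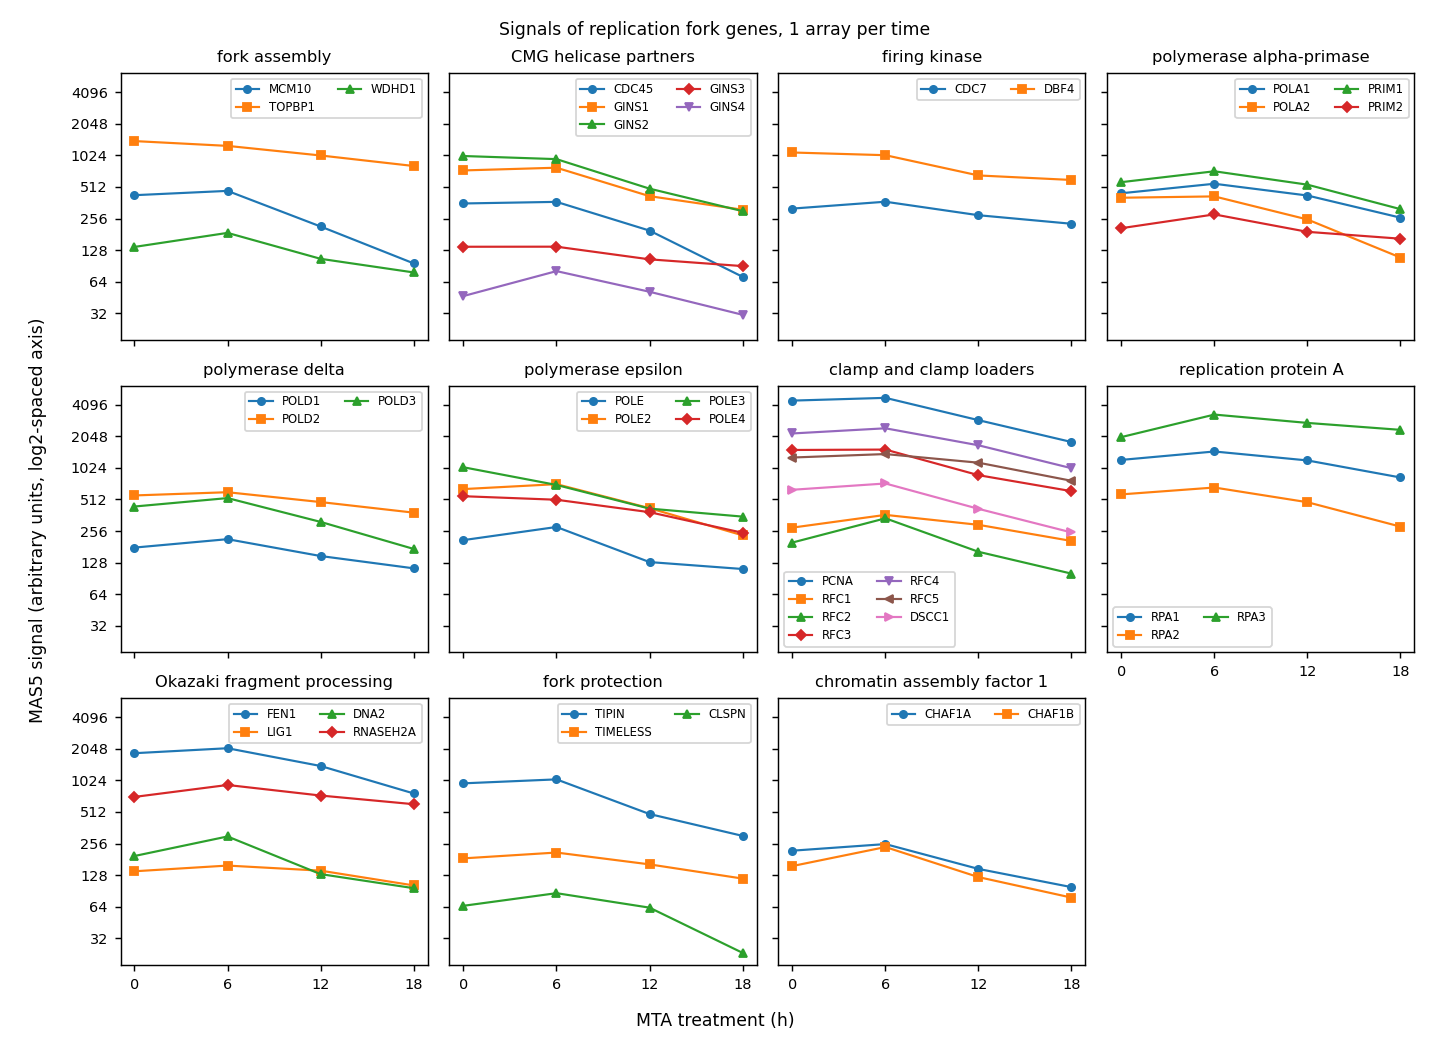
MAS5 signal (arbitrary units, log2-spaced axis) of each of the 40 genes against hours of MTA treatment, by complex, with 1 array per time and no error bars. CDC45, MCM10 and POLA2 keep their 0 h level at 6 h and reach 71.4, 95.9 and 109 at 18 h, while RPA3 stays above its 0 h signal; heights of different genes are not comparable.

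Polymerase alpha‐primase, which starts every new strand, was led by its B subunit. POLA2 had signals of 404, 416, 251 and 109 at 0, 6, 12 and 18 h, a log2 ratio of −1.89 at 18 h, with most of the difference between 12 and 18 h (−1.20). The catalytic subunit POLA1 had 446, 549.7, 425 and 261, a log2 ratio of −0.77, and the catalytic primase subunit PRIM1 had 569, 723, 539 and 315, a log2 ratio of −0.85. PRIM2, the large primase subunit, had 207, 281, 191 and 165, and its log2 ratio of −0.33 lay above the median of all kept genes. The subunits of this one enzyme thus ranged from −1.89 to −0.33, and 1 of 4 was below −1, against 15.7% of all kept genes.

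Polymerase epsilon was lower as a whole in the deposited scaling, with 3 of its 4 subunits below −1, against 15.7% of all kept genes, and a median of −1.31. POLE3, a histone‐fold subunit that also serves in a chromatin remodeller, had signals of 1038, 704, 419 and 352 at 0, 6, 12 and 18 h, a log2 ratio of −1.56 at 18 h. It was the lowest of the 40 genes at 6 h, with −0.56, and at 12 h, with −1.31. POLE2, the B subunit, had 643, 717, 423 and 233, a log2 ratio of −1.46, and POLE4, the partner of POLE3, had 550.1, 509, 388 and 247, a log2 ratio of −1.16, with −0.99 on its second kept probe set. POLE, the catalytic subunit, had −0.91, with 111 at 18 h and 210.0 at 0 h. With median centring POLE3 (−1.10) and POLE2 (−1.0004) were below −1 and POLE4 (−0.69) was not.

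Of polymerase delta, only the subunit POLD3 was below −1 in the deposited scaling, and with median centring it was at −0.88. POLD3, which stabilises the enzyme and binds PCNA, had signals of 439, 528, 313 and 173 at 0, 6, 12 and 18 h, a log2 ratio of −1.34 at 18 h. The catalytic subunit POLD1 had 178, 214, 148 and 113, a log2 ratio of −0.66, and POLD2, which joins the subunits, had 559, 600.5, 484 and 384, a log2 ratio of −0.54. The catalytic subunits of alpha, delta and epsilon were above −1 (−0.77, −0.66 and −0.91). In alpha and delta the other subunits lay on both sides of the catalytic one, PRIM2 (−0.33) and POLD2 (−0.54) being higher. In epsilon the other subunits were lower, but POLE4 (−1.16) differed from POLE by less than the SD of 0.49 between probe sets.

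PCNA, the sliding clamp, had signals of 4479, 4758, 2917 and 1806 at 0, 6, 12 and 18 h. Its log2 ratio was −1.31 at 18 h, a remainder of 40.3%. The small RFC subunits RFC3 and RFC4, which help to open the clamp, had −1.30 and −1.10, RFC3 at 614 under 18 h of MTA and 1517 at 0 h, and RFC4 at 1017 under 18 h of MTA and 2179 at 0 h. RFC3 also had −1.27 and −0.58 on its other kept probe sets. RFC2 had −0.98, and −1.15 on its second probe set, while RFC5 was at −0.74 and between −0.60 and −0.57 on its others.

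The large subunit RFC1, which only the main clamp loader contains, had the highest ratio of the RFC subunits by the brightest probe sets. Its signals were 276, 365, 294 and 206 at 0, 6, 12 and 18 h, a log2 ratio of −0.42 that lay above the median of all kept genes, with −0.09 on its second kept probe set. The distance from the small subunit RFC5 (−0.74) was smaller than the SD of 0.49 between probe sets. DSCC1, a subunit of the alternative loader that serves sister chromatid cohesion, had 634, 727, 417 and 248, a log2 ratio of −1.35, the lowest of the 7 genes of clamp and loaders. Of these 7, 4 were below −1 in the deposited scaling, against 15.7% of all kept genes. With median centring the lowest of them, DSCC1, was at −0.89.

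Replication protein A, the heterotrimer that coats single‐stranded DNA, held the only fork gene with a higher signal at 18 h than at 0 h in the deposited scaling. RPA3, the smallest subunit, had signals of 2012, 3298, 2746 and 2358 at 0, 6, 12 and 18 h, with log2 ratios of 0.71, 0.45 and 0.23. All MTA arrays were above 0 h for it, and it was above 0 at 18 h under every scaling tried. RPA1, the large DNA‐binding subunit, had 1219.7, 1467, 1206 and 829.6, a log2 ratio of −0.56 at 18 h, and −0.43 on its second kept probe set. RPA2, the subunit phosphorylated in the damage response, had 573, 666, 482 and 282, a log2 ratio of −1.02. The subunits of this trimer thus lay on either side of the median of all kept genes.

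Enzymes that join Okazaki fragments, the short pieces of the lagging strand, were split. FEN1, the nuclease that trims the flap ahead of ligation, had signals of 1858, 2073, 1404 and 769 at 0, 6, 12 and 18 h, a log2 ratio of −1.27 at 18 h, with −1.49 on its second kept probe set. DNA2, a nuclease and helicase that cuts long flaps, had 195, 299, 131 and 96.3, a log2 ratio of −1.02. LIG1, the ligase that seals the nicks, had 139, 158, 141 and 102, a log2 ratio of −0.45. RNASEH2A, the catalytic subunit of the enzyme that removes RNA from DNA, had 712, 926, 734 and 607, a log2 ratio of −0.23. LIG1 and RNASEH2A lay above the median of all kept genes, while FEN1 and DNA2 lay below it.

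Fork protection genes included TIPIN, with signals of 959.6, 1047, 489 and 303 at 0, 6, 12 and 18 h and a log2 ratio of −1.66 at 18 h. Its obligate partner TIMELESS had 185, 210.3, 162 and 119, a log2 ratio of −0.64, nearer to the median of all kept genes than that of TIPIN. CLSPN, the adaptor through which ATR activates CHEK1, had 65.4, 86.2, 62.8 and 23.3, a log2 ratio of −1.49, but its signal at 18 h lay below 32, the signal at the limit for kept genes, so the size of this ratio rests on a dim reading. Chromatin assembly factor 1, which places histones on new DNA behind PCNA, was lower in both subunits measured. CHAF1A had 219, 253, 147 and 98.5, a log2 ratio of −1.15, with −1.03 and −0.82 on its other kept probe sets, and CHAF1B had 156, 237, 123 and 78.3, a log2 ratio of −0.999.

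**Figure D3:**
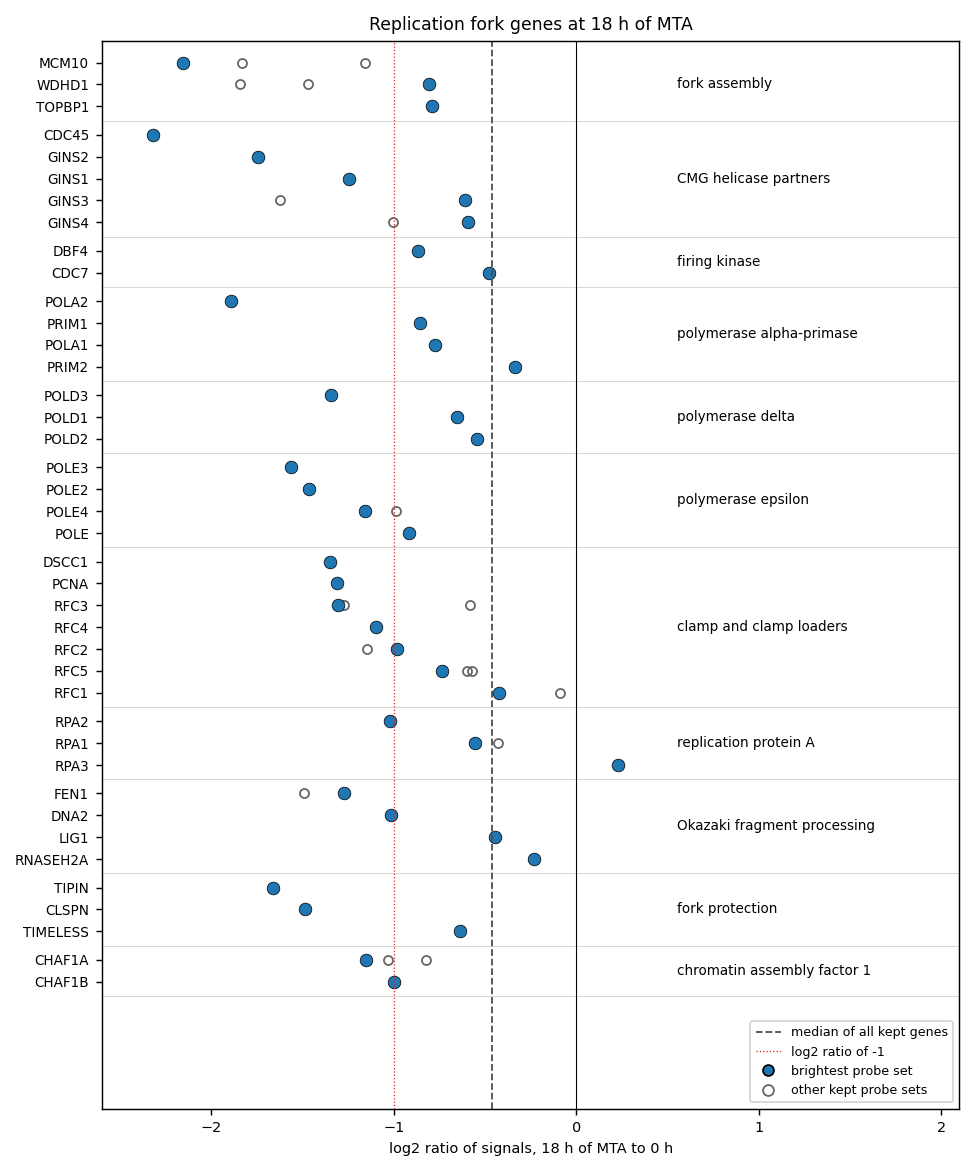
Log2 ratio between cells under MTA for 18 h and 0 h cells for each of the 40 genes, ordered within complexes, with the brightest probe set as a filled point, other kept probe sets as open circles, dashes marking where the median of all kept genes lies (−0.46) and dots marking −1. CDC45 lies lowest at −2.32, RPA3 alone lies right of 0 in the deposited scaling, and the probe sets of WDHD1 and GINS3 lie more than 1 apart.

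The count of halved genes rests partly on values close to the threshold and on the probe set. RPA2 and DNA2, both at −1.02, lay just inside −1, and CHAF1B (−0.999) and RFC2 (−0.98) just outside it, and 6 genes in all lay within 0.1 of it. With every kept probe set considered, 16 genes were below −1 on all of them and 23 on at least 1. Of the 57 kept probe sets of the 40 genes, 56 were below 0 at 18 h and 29 below −1. By the brightest probe set, 78% of all kept genes were below 0 and 15.7% below −1. The same counts over every kept probe set of all genes are not given. Nor are the shares of all kept genes below −1 on all, or on at least 1, of their kept probe sets. Of the 12 genes with several kept probe sets, 5 had all of them on the same side of −1.

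The shift of the set from all kept genes was small at 6 and 12 h. At 6 h none of the 40 genes was below −1, against 0.489% of all kept genes, and 35 were above 0, against 62.5%, though this count changed with the scaling. The set's median log2 ratio of 0.19 at 6 h was a shift of 0.08 from all kept genes. GINS4, RFC2 and RPA3 had the highest ratios at 6 h, with 0.79, 0.77 and 0.71. With the arrays scaled to the control RNA added before labelling, 19 of the 40 were above 0 at 6 h, so no direction can be given for the set at this time.

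At 12 h the set's median was −0.39, a shift of −0.11 from all kept genes. Under the other scalings 0 to 3 genes were below −1, against 1.9% to 7.2% of all kept genes. Only POLE3, at −1.31, and GINS2, at −1.03, were so in the deposited scaling, against 6.33%. MCM10 and TIPIN followed at −0.99 and −0.97. RPA3, RFC1, LIG1, RNASEH2A and GINS4 were above 0, from 0.02 to 0.45, against 28.6% of all kept genes. Under 4 of the 5 other scalings 16 or 17 of the 40 were above 0, against 49.1% to 53.8% of all kept genes. The 18 h array can also be set against the 12 h array, a ratio that does not use the 0 h array. In it all 40 genes were below 0, against 76% of all kept genes (32 to 40 under the other scalings, against 36.7% to 91.1%). Of the 40, 39 lay below the median of all kept genes, DBF4 being the exception. The median was −0.57, a shift of −0.38, and CDC45 (−1.46), CLSPN (−1.43), POLA2 (−1.20) and MCM10 (−1.17) were below −1, against 1.02% of all kept genes, and CDC45 and CLSPN were so under all 5 other scalings. CLSPN rests on a dim signal of 23.3 at 18 h. Its 3 other probe sets, all too dim to be kept, were higher at 18 h than at 12 h (0.73, 1.26 and 0.55). The 18 h cells had also had less time in MTA‐free medium than those of the 12 h array.

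From 6 to 12 h all 40 genes were lower as well in the deposited scaling, against 88.5% of all kept genes. Under the others 28 to 39 were lower, against 47.2% to 75.1%. The median in the deposited scaling was −0.60, a shift of −0.22. DNA2 (−1.19), MCM10 (−1.13), POLE (−1.11), TIPIN (−1.10) and RFC2 (−1.06) were below −1 in this step, against 3.68% of all kept genes, but none of the 40 was below −1 under 4 of the 5 other scalings and only DNA2 under the other. Which of the steps was the larger depended on the scaling for many of the genes, and no split of the 40 is given. All 40 were lower at 12 h than at 6 h and lower again at 18 h, against 67.2% of all kept genes. Under the other scalings 27 to 36 were so, against 20.9% to 56.6% of all kept genes. The lowest signal was at 18 h in 39 genes, against 64.1%, and in 32 to 39 under the other scalings, against 27.0% to 70.5%.

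Neighbouring parts of the replication machinery were counted in the same way. All 6 subunits of the MCM2-7 ring, the motor to which CDC45 and GINS attach, were below −1 at 18 h in the deposited scaling, against 15.7% of all kept genes, with a median of −1.47 and with MCM3 and MCM5 both at −1.75. With median centring 3 of the 6 (MCM3, MCM5 and MCM6) were below −1, against 3.56% of all kept genes. With quantile or trimmed mean scaling only MCM3 and MCM5 were, against 3.89% and 3.09%. Of 11 genes of origin recognition and licensing, which load that ring in G1, 5 were below −1, with a median of −0.89. CDC6, the loader of the ring, had −2.26, DTL, an adaptor of the ubiquitin ligase that removes CDT1, −2.17, and MCMBP, a chaperone of MCM proteins, −1.55. MCM3, MCM5, CDC6 and DTL, among others of these lists, had already been selected on these same arrays for their lower signal at 18 h. Their direction is therefore not independent evidence. Of 22 other fork accessory and firing factors, 4 were below −1 and none below −1.5, with a median of −0.67, and of 7 genes of deoxynucleotide supply 2 were below −1, led by DCTPP1, a pyrophosphatase that clears unwanted nucleotides, at −1.53. The share of accessory factors below −1 (18.2%) was near the 15.7% of all kept genes. None of these genes was above 1 in the deposited scaling, against 3.28% of all kept genes. The counts below −1 were lower under median centring, at 3 of 11, 0 of 22 and 1 of 7, against 3.56% of all kept genes. The 40 fork genes, at −0.99, thus lay between the MCM ring and the accessory factors.

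Lists from outside the nuclear fork were also counted. Of all kept genes, 15.7% were below −1 and 3.28% above 1 in the deposited scaling. Of 7 translesion polymerases and partners, which copy damaged DNA, none was below −1 or, in the deposited scaling, above 1, and their median of −0.46 equalled that of all kept genes. Of 10 genes of mitochondrial DNA replication, 1 was below −1, the helicase TWNK at −1.58, with a median of −0.81. TWNK too had already been selected on these arrays for its lower signal at 18 h. Mitosis genes ran the other way: of 25, none was below −1 and 4 were above 1, against 3.28% of all kept genes, with a median of 0.48. With median centring 12 of the 25 were above 1, against 7.71% of all kept genes. The cytokinesis motor KIF20A had 1.86, the kinetochore protein CENPF and the spindle factor HMMR had 1.40 each, and NEK2, which separates centrosomes, had 1.00. The ranges of the 25 mitosis genes (−0.68 to 1.86) and the 40 fork genes (−2.32 to 0.23) overlapped between −0.68 and 0.23. The median of all kept genes, −0.46, lay inside that band. Of all kept genes, 36.0% lay below POLD1 (−0.66), near its lower end, and 85.6% below RPA3 (0.23), at its upper end. No test of these differences between lists was possible with 1 array per time.

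**Figure D4:**
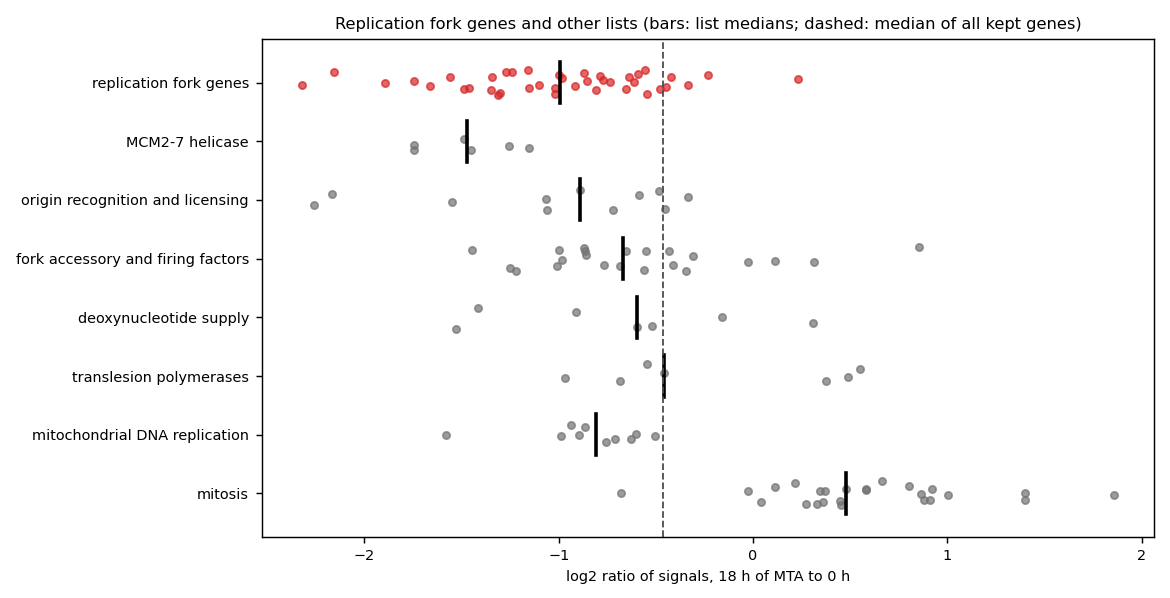
Log2 ratio between cells under MTA for 18 h and 0 h cells, with a point for each kept gene of the 40 replication fork genes (red) and 7 other lists (grey), a bar at each list's median and dashes where the median of all kept genes lies (−0.46). The median of the fork genes is −0.99, that of the MCM2-7 helicase −1.47 and that of mitosis genes 0.48.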

How the data were processed

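The authors deposited linear MAS5 intensities, 1 value per probe set in each array, computed in Affymetrix Expression Console and made from biotin‐labelled cRNA on U133 Plus 2.0 arrays. Its version and target level are not stated in those notes. With 62 controls set aside, 41091 of 54613 probe sets had 1 gene symbol in GEO's platform annotation, updated through the RefSeq gene table of GRCh38.p14, and 1801 had several and were not named. A gene's value was the log2 signal of its probe set with the highest mean, and genes with a mean log2 signal of at least 5 were kept (10630). Ratios used the deposited scaling without a pseudocount. The thresholds were −1 and −1.5, the second as in the study. Precision is limited by having 4 arrays, and no p‐value is given. All 40 members were named, and genes of other lists only where below −1.5 or above 1, at most 4 each. Members, lists, motifs and thresholds were chosen with earlier results of these data known. Alternatives were 5 other scalings of the arrays, a pseudocount of 16, 3 other filters, 3 other choices of probe set, and leaving out 6 members. Other scalings of the counts at 12 h, of the steps between times and of the other lists were added after seeing the data. The calculation was tested on simulated data. Protein motifs were not analysed here. Python 3.11.15, NumPy 2.4.6, pandas 2.3.3 and matplotlib 3.10.9 were used.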

Additional observations from a re-analysis of the deposited data

How the results depend on the processing

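Scaling the arrays moved the results most. Of the 40 genes, the number below −1 at 18 h was 19 with the deposited scaling, 8 with median centring, 6 with quantile normalization and 6 with each array divided by its trimmed mean. The shares of all kept genes below −1 were 15.7%, 3.56%, 3.89% and 3.09% in the same order. Relative to the control RNA added before labelling (poly‐A controls) 13 were below −1, against 7.46% of all kept genes. Relative to the control RNA added after labelling 17 were, against 13.8%. The number below −1.5 was 6 with the deposited scaling, against 3.19% of all kept genes, and 1 without the 6 members. It was 2 with each of median centring, quantile normalization and the trimmed mean, and 3 relative to the poly‐A controls. The shares of all kept genes below −1.5 under those other scalings are not given, so these counts cannot be set against all genes. Other choices of probe set, filter or pseudocount gave 17 to 22 below −1, against 12.9% to 18.8% of all genes under each choice. The median at 18 h was −0.53 with median centring, −0.48 with quantile normalization, −0.48 with the trimmed mean and −0.74 relative to the poly‐A controls, and the median at 12 h was −0.11, −0.081 and −0.066 with the first 3 and −0.12 relative to the controls added after labelling. The median of 18 h against 12 h was −0.29 relative to the poly‐A controls. The shift from all kept genes at 18 h stayed between −0.67 and −0.43 in all 13 alternatives, though dividing an array by 1 number cannot move it. No member below −1 changed sign, and CDC7, LIG1, POLD2, PRIM2, RFC1, RNASEH2A and RPA1 were above 0 under at least 1 scaling. No paired analysis was possible because each time has 1 array.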

Other observations

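PRIM2, the large primase subunit, has 4 further probe sets that the platform annotation also assigns to PRIM2BP, and they were not used for the gene. The brightest of these had signals of 87.6, 126, 83.2 and 70.3 at 0, 6, 12 and 18 h, a log2 ratio of −0.32 at 18 h, beside −0.33 on the probe set of PRIM2 alone.

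Of the 73 probe sets of the 40 genes, 16 were too dim to be kept. A probe set of CHAF1A among them had a log2 ratio of 3.55 at 18 h, reading 11.4 at 18 h and 0.98 at 0 h, so this ratio rests on readings far below 32. A probe set of POLA2 among them had −2.72, with 9.70 at 18 h and 63.9 at 0 h, and another had 0.26, with 23.4 at 18 h and 19.5 at 0 h. Of the members called below −1 at 18 h, CLSPN had 3 further probe sets, none of them kept, with log2 ratios of −0.25, −0.83 and −0.21.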
